A study of Drosophila melanogaster with 2 samples.

Results

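The genes for the proteins of the large subunit of the cytosolic ribosome were examined for occupancy by MTF-1-GFP in embryos of Drosophila melanogaster. Members were all protein-coding genes with a symbol that starts with RpL or RpLP, goes on with a number and may end in a letter suffix or in -like. This gave 52 of the 13945 protein-coding genes on the chromosome arms 2L, 2R, 3L, 3R, 4 and X in Ensembl release 115 (BDGP6.54, the same assembly as dm6). Chromatin immunoprecipitation with sequencing (ChIP-seq), in which DNA bound by a protein is precipitated with an antibody and sequenced, had been done on whole embryos of both sexes, 0 to 24 h old. The embryos came from a stable transgenic line in which GFP is fused to the C terminus of MTF-1. Both samples, biological replicates 2 and 4, belong to 1 group and have separate biosample entries, though no label says that they came from separate crosses. Which promoter drives the transgene, and how much metal the food held, is not stated. The labels name no untagged embryos and no other group, so no condition could be compared and no p-value is given. The antibody label and the titles describe precipitated chromatin, but the description field of either sample speaks of an input control. The samples were treated as precipitates.

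MTF-1 is a zinc-finger transcription factor that binds metal response elements (MREs) and switches on metallothionein and other metal-handling genes. The ribosomal proteins of the large subunit surround the peptidyl transferase centre, line the exit tunnel and form a stalk that recruits translation factors, and their genes are transcribed at high rates in growing embryos. In flies the starts of ribosomal protein genes often carry a pyrimidine-rich initiator, the TCT motif, in place of the usual initiator and a TATA box. The DNA-binding factors DREF and M1BP are known to recruit the TBP-related factor TRF2 to many of these promoters. Not all members encode a structural protein of the ribosome: RpL7-like, RpL24-like and RpLP0-like are the fly counterparts of the yeast assembly factors Rlp7, Rlp24 and Mrt4.

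Promoter sequences of 9 members are shown because they cover the strongest peaks, both genes of the RpL10A pair and genes without a peak. All are from RefSeq Release 6 of the genome, the assembly of dm6, and are written 5′ to 3′ on the coding strand. Each runs from base -70 to base 29 relative to the transcript start, which is base 0. Capitals mark the TCT motif (CTTTT or CTTTC after a C or T, within 10 bp of the start), the DRE core ATCGATA with its reverse complement, and the M1BP core GGTCACA. RpL14 (chr3L:8600936-8601035 (plus strand)), RpL13A (chr3R:5624404-5624503 (plus strand)), RpLP1 (chr2L:419882-419981 (plus strand)), RpL10Ab (chr3L:11822781-11822880 (plus strand)) and RpL27 (chr3R:25685022-25685121 (minus strand)) had a thresholded peak. RpL10 (chr3L:23095442-23095541 (minus strand)), RpL10Aa (chr3R:15037296-15037395 (plus strand)), RpL6 (chr3R:31596175-31596274 (minus strand)) and RpL40 (chr2L:4227629-4227728 (plus strand)) had none.
RpL14: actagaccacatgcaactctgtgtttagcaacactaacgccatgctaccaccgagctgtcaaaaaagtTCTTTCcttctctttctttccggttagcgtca
RpL13A: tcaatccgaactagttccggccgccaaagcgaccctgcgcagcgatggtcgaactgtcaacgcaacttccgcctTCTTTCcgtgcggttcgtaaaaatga
RpLP1: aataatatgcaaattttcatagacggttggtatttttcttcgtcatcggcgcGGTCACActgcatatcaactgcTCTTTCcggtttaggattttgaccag
RpL10Ab: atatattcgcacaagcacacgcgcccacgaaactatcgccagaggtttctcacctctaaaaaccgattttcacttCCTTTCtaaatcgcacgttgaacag
RpL27: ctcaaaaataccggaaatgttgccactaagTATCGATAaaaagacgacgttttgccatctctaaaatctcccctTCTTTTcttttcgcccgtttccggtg
RpL10: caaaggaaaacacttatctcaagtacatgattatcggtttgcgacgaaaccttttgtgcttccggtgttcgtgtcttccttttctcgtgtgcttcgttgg
RpL10Aa: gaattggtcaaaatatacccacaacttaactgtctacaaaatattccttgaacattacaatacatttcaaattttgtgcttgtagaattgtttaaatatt
RpL6: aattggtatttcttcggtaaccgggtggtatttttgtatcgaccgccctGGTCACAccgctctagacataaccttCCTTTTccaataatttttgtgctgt
RpL40: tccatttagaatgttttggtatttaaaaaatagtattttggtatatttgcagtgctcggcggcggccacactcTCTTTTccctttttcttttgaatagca

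Shorter pieces of 30 bases are shown for 3 further genes. That of RpL7 (chr2L:10201014-10201043 (plus strand), bases -86 to -57) holds 2 overlapping MRE cores, 1 on each strand, in capitals. That of RpL7-like (chr2L:12056290-12056319 (plus strand), bases -58 to -29) holds an MRE core and a DRE core on both strands, in capitals. That of RpL21 (chr2L:22247816-22247845 (minus strand), bases -12 to 17) holds 2 overlapping TCT motifs, in capitals. RpL7 had a peak, whereas RpL7-like and RpL21 had none.
RpL7: gcgtgtcacGTGTGCACGCatttcgcagca
RpL7-like: tcagctgtTGCACACatcactTATCGATAg
RpL21: attcaagtagccaTCTTTCTTTCttttctc

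Nearly all large-subunit genes carried an MTF-1-GFP peak at their start. A gene was called bound when the summit of a thresholded peak lay within 1 kb of one of its transcript starts, and 44 of the 52 members were bound (84.6%), against 17% of all protein-coding genes. The members called did not depend on the width of the window: the same 44 genes were bound within 500 bp and within 250 bp, while the share of all protein-coding genes fell to 14.3% and 11.6%. With canonical transcript starts only, they were again bound, against 15% of all protein-coding genes. A window of 5 kb added RpL24-like, for 45 members against 33.3% of all protein-coding genes. In the upper 50% of the thresholded list by signal, 39 members stayed bound against 9.54% of all protein-coding genes, and RpL5, RpL15, RpL26, RpL38 and RpLP0-like dropped out. The bound genes had 44 distinct strongest peaks, so no peak was counted for 2 members. A second, weaker peak was found at 4 members, among them RpL8, RpL34b and RpL39, where it had ranks of 2715, 2108 and 3188.

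**Figure D1:**
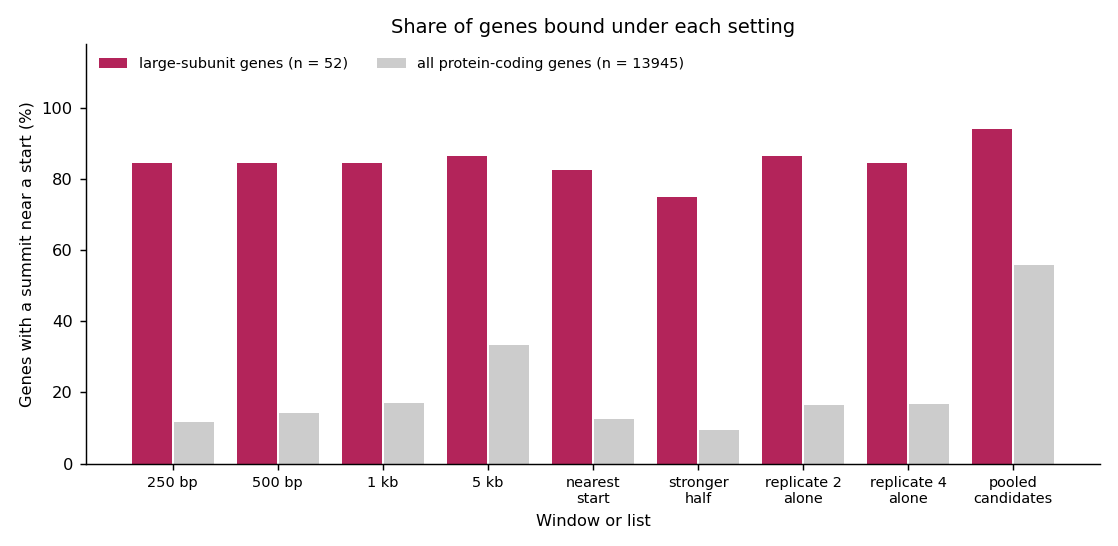
Share of genes with a summit near a transcript start, in percent, for the 52 large-subunit genes (dark bars) and all 13945 protein-coding genes (grey bars), under each window or list. The dark bars stay between 75% and 94.2% while the grey bars range from 9.54% to 55.8%.

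Each replicate alone gave nearly the same set. Taking the 3587 strongest regions of replicate 2, as many as the thresholded list holds, 45 members were bound against 16.4% of all protein-coding genes, namely the same 44 and RpL7-like. The 3587 strongest regions of replicate 4 gave 44 members against 16.8%, of which 42 were shared with the thresholded list. RpL15 and RpL36A were missing there and RpL10 and RpL7-like were gained. Among all 30000 candidate regions of the pooled list, which the authors deposited as peaks and background, 49 members had a summit within 1 kb of a start, against 55.8% of all protein-coding genes. The share among the candidates of replicate 2 was 46 members against 52.9%, and among those of replicate 4 it was 48 members against 56.7%.

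Peak strength was compared by rank within a list, where rank 1 is the highest signal value given by the authors' peak caller. The scale of that signal is not stated and the read depth is unknown, so levels were not compared between lists. The thresholded list held exactly the 3587 strongest regions of the pooled list, so that its ranks are those of the pooled list. The strongest peaks of the 44 bound members had ranks from 64 to 3431 with a median of 266, and the corresponding median over all 2368 bound protein-coding genes was 1572.5. Of the bound members, 27 lay within rank 300 (61.4%), against 11.95% of all bound protein-coding genes. In replicate 2 the 44 bound members had ranks from 30 to 3261 (median 170.5), and in replicate 4 the 43 with a region had ranks from 78 to 8206 (median 392).

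**Figure D2:**
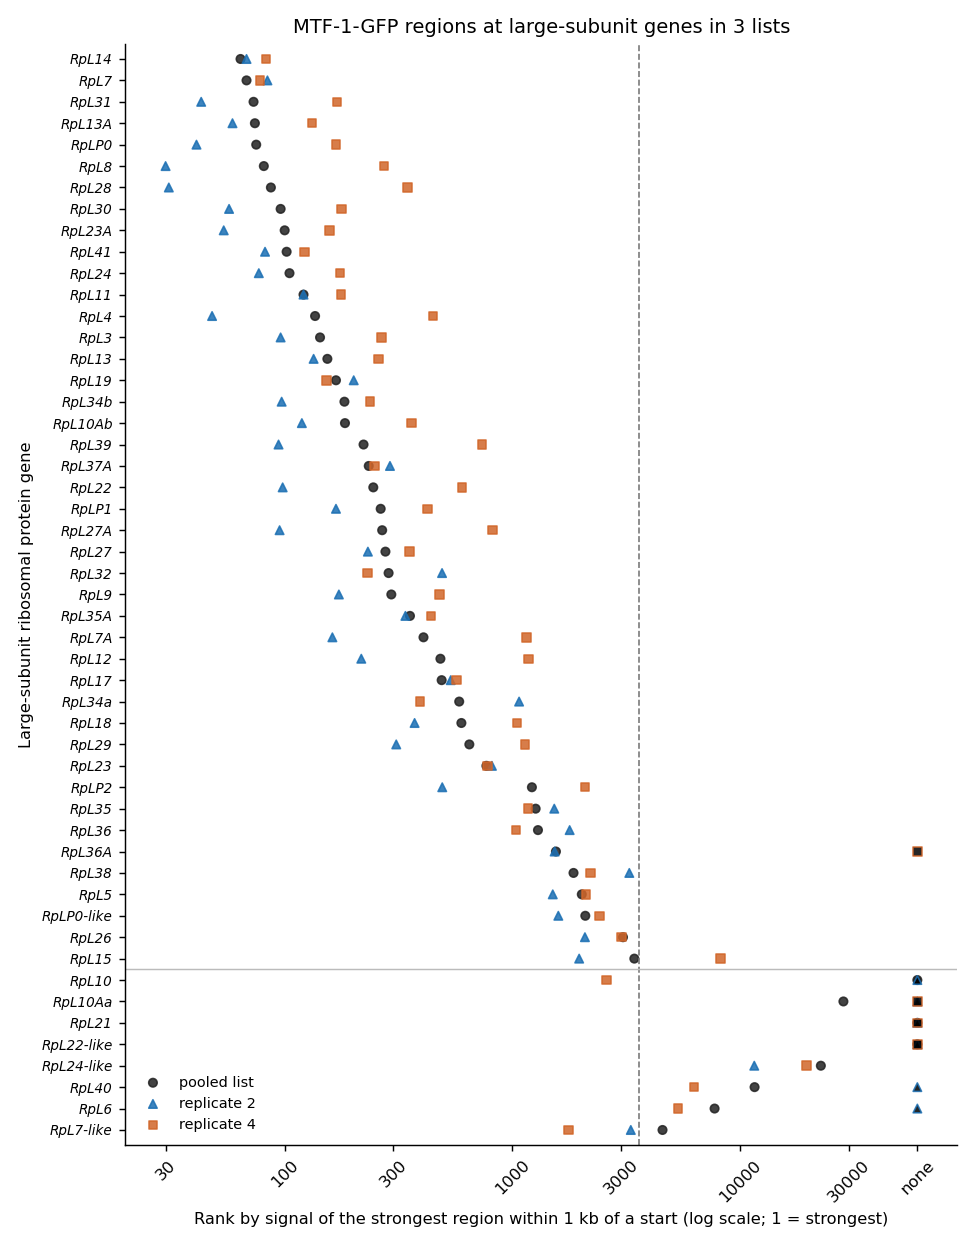
Rank by signal of the strongest region within 1 kb of a start, on a log axis, for 51 of the 52 members in the pooled list (circles), replicate 2 (triangles) and replicate 4 (squares). The dashed line marks rank 3587, the end of the thresholded list; genes above the grey line are bound, and points at the right edge mark genes with no region in that list. Most members lie well to the left of the dashed line in all 3 lists, and 8 members have no thresholded peak.

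The 12 strongest peaks were all at genes of structural proteins. Among the 44 bound members only RpLP0-like is an assembly-factor counterpart, so this cannot tell the classes of protein apart. RpL14 had the highest, at chr3L:8600848-8601123, with rank 64 and a signal of 733 in the thresholded list, rank 68 in replicate 2 and rank 83 in replicate 4. RpL7, at chr2L:10200915-10201195, followed with rank 68 and a signal of 710, rank 84 in replicate 2 and rank 78 in replicate 4. These were the only members within rank 100 in both replicates, and the sequences of both are given above. RpL31, whose protein sits at the rim of the exit tunnel, had rank 73 and a signal of 681, with rank 43 in replicate 2 and 170 in replicate 4. RpL13A had rank 74 and a signal of 681, with rank 59 in replicate 2 and 132 in replicate 4. RpL8, whose protein lies close to the peptidyl transferase centre, had rank 81 and a signal of 656, with rank 30 in replicate 2 and 273 in replicate 4. All 3 stood higher in replicate 2 than in replicate 4. RpL28 had rank 87 and a signal of 644, with rank 31 in replicate 2 and 347 in replicate 4. RpL30, part of a bridge to the small subunit, had rank 96 and a signal of 630, with ranks of 57 and 178 in replicates 2 and 4. RpL23A, which forms the docking site for targeting and chaperone factors at the tunnel exit, had rank 100 and a signal of 620, with ranks of 54 and 157. RpL28 was the most unequal of these genes between the replicates. RpL41, the smallest ribosomal protein, had rank 102 and a signal of 618, with ranks of 82 and 122. RpL24, another bridge protein, had rank 105 and a signal of 606, with ranks of 77 and 175. RpL11, which joins the subunit together with RpL5, had rank 121 and a signal of 574, with ranks of 121 and 177. The stalk gene RpLP0 completes the 12. Their signals, from 574 to 733, spanned a narrow range, and their order within it differed between the replicates.

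Peaks at the genes of the stalk and its base differed widely in rank. RpLP0 encodes the anchor of the stalk, to which dimers of the acidic proteins RpLP1 and RpLP2 attach. RpLP0 had rank 75 with a signal of 678, rank 41 in replicate 2 and rank 168 in replicate 4. RpLP1 had rank 264 with a signal of 416, and ranks of 168 and 424 in replicates 2 and 4. RpLP2 had rank 1218 with a signal of 188, and ranks of 492 and 2084. The order RpLP0, RpLP1, RpLP2 was the same in both replicates. RpL12, whose protein lies at the base of the stalk, had rank 483, with ranks of 217 and 1176 in the replicates. RpLP0-like, the counterpart of the factor that holds the place of RpLP0 during assembly, had rank 2090 with a signal of 140, and ranks of 1591 and 2417. Its summit lay 65 bp from its own start but 22 bp from that of 14-3-3zeta, a gene for a phosphoserine-binding adaptor protein, and it was the 1 bound member for which another gene's start was nearer.

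Genes of the peptidyl transferase region and the exit tunnel spanned almost the whole range. RpL3, which reaches into the peptidyl transferase centre, had rank 143, with ranks of 96 and 266 in replicates 2 and 4. RpL4, whose protein extends into the tunnel, had rank 136 with ranks of 48 and 448. RpL17, another tunnel protein, had rank 489 with ranks of 536 and 567. RpL39, a tunnel protein too, had rank 222 with ranks of 94 and 735. RpL35, at the tunnel exit, had rank 1265 with ranks of 1527 and 1168. RpL26, also at the exit, had rank 3059 with ranks of 2082 and 3020. Genes of tunnel proteins were thus found among the 12 strongest peaks, with RpL23A and RpL31, and among the 6 weakest, with RpL26. RpL19, whose protein reaches across to the small subunit, had rank 168, and RpL9, RpL29 and RpL32 had ranks of 294, 647 and 286. RpL32 is a common reference gene for transcript measurements in flies.

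Peaks at paralogues were often of very different rank. RpL10Ab encodes the protein of the mobile stalk near the exit site for transfer RNA, and RpL10Aa is a copy with 1 exon. RpL10Ab had rank 184 with a signal of 481, and ranks of 119 and 360 in replicates 2 and 4. RpL10Aa had no thresholded peak and no region within 1 kb in either replicate list, and its 1 pooled region ranked 28412, with its summit 408 bp from the start. RpL34a and RpL34b encode the same ribosomal protein from separate genes, and both were bound. RpL34b had rank 183 with a signal of 481, and ranks of 97 and 237 in the replicates. RpL34a had rank 584 with a signal of 275, and ranks of 1070 and 392. RpL34b ranked above RpL34a in both replicates. RpL22 had rank 245 with a signal of 425 and ranks of 98 and 602, whereas RpL22-like, a paralogue known for its expression in the male germline, had no region within 1 kb in any of the 4 lists. For RpL22-like the nearest summit in any list lay 1857 bp away, in replicate 4.

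The assembly-factor counterparts ranked lower than the genes whose names they share. RpL24 had rank 105, while RpL24-like had no thresholded peak and candidate regions of rank 22617 in the pooled list, 11536 in replicate 2 and 19567 in replicate 4. RpL7 had rank 68, while the strongest pooled region at RpL7-like ranked 4562 with a signal of 89.9, its summit 34 bp from the start. RpLP0 had rank 75 against 2090 for RpLP0-like, as given above. The strongest region at RpL7-like ranked 1760 in replicate 4 at 52 bp from the start, and 3311 in replicate 2 at 673 bp, so the replicates placed it at different positions. Both ranks fell inside the 3587 strongest of the replicate's own list.

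Other members share a number but encode distinct proteins. RpL13 had rank 154 against 74 for RpL13A, with ranks of 134 and 258 against 59 and 132 in replicates 2 and 4. RpL35 had rank 1265 against 355 for RpL35A, whose ranks in the replicates were 339 and 440. RpL23 had rank 769 against 100 for RpL23A, with ranks of 813 and 776 against 54 and 157. In these 3 pairs the gene with the A ranked higher in both replicates. The order was the opposite in the thresholded list for RpL7 and RpL36. RpL7 had rank 68 against 407 for RpL7A, whose ranks in the replicates were 162 and 1154. RpL36 had rank 1295 against 1553 for RpL36A, but the order turned in replicate 2, with 1784 against 1533, and in replicate 4 RpL36 had rank 1039 and RpL36A no region. RpL27 had rank 277 against 268 for RpL27A, an order that turned between the replicates, with RpL27 at 232 and 353 and RpL27A at 95 and 816. RpL37A had rank 234, with ranks of 290 and 248, and RpL18 had rank 597, with ranks of 372 and 1049.

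Of the 6 weakest bound members, RpL15 and RpL26 were close to the limit of the thresholded list and the others lay near its middle. RpL38 had rank 1855 with a signal of 150, and ranks of 3261 and 2207 in replicates 2 and 4. RpL5, the partner of RpL11, had rank 2017 with a signal of 143, and ranks of 1504 and 2104. RpL26 had a signal of 114 at rank 3059. RpL15 came last, with rank 3431, a signal of 107, rank 1964 in replicate 2 and rank 8206 in replicate 4, where its summit lay 122 bp from the start. RpL36A, at rank 1553 with a signal of 166 and rank 1533 in replicate 2, had no region within 1 kb in replicate 4. RpLP0-like is the other. RpL15 and RpL36A were the only bound members that the 3587 strongest regions of 1 replicate left out. Just outside the threshold came RpL7-like, at pooled rank 4562.

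The 8 members without a thresholded peak were RpL6, RpL7-like, RpL10, RpL10Aa, RpL21, RpL22-like, RpL24-like and RpL40. RpL10 encodes a protein next to the peptidyl transferase centre that joins the subunit late in its assembly. RpL10 had a region of rank 2588 in replicate 4, with its summit 34 bp from the start, and no region within 1 kb in replicate 2 or the pooled list. The nearest pooled summit lay 55060 bp away. RpL6 had a pooled region of rank 7723 and a replicate 4 region of rank 5326, both 86 bp from the start, and none in replicate 2. RpL40, which is made as a fusion with ubiquitin, had a replicate 4 region of rank 6271 at 120 bp and a pooled region of rank 11572 at 759 bp. RpL6, RpL10 and RpL40 thus had a region near the start in replicate 4 and none within 1 kb in replicate 2. RpL21 had no region within 1 kb in any list, and the nearest summit, in replicate 4, lay 6627 bp away. In all, 5 of the 8 had a pooled candidate region, 5 had one in replicate 4 and 2 had one in replicate 2. Repeats in the genome, where a read may have no single place, were looked for as 36-mers that occur more than once, within 250 bp of the start. Their share was 0% at all 8 unbound genes, and it was above 0% at 2 bound genes, RpL7A and RpL17, where it reached 2.36%.

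Large-subunit genes stood higher in the list of replicate 2 than in that of replicate 4. All 48 thresholded peaks at members were looked up in both replicate lists, and 47 overlapped a region in each by at least 1 bp. Such overlap is not particular to members, since the thresholded list was derived from these lists. A region in both was found for 43 of the 44 bound members and for 2301 of all 2368 bound protein-coding genes. Of the 43 bound members with a region in both, 33 ranked higher in replicate 2 than in replicate 4 (76.7%), against 48.2% of the 2301 bound protein-coding genes with both. Replicate 4 ranks were a median of 2.27 times those in replicate 2, against 0.951 over all bound genes. Small-subunit genes did so too, with 23 of 26 ranked higher in replicate 2 (88.5%) and a median ratio of 4.31. The ratio was widest at RpL28 (11.2), RpL4 (9.33), RpL8 (9.10), RpL27A (8.59), RpL39 (7.82) and RpL7A (7.12), and at all 6 the higher rank was in replicate 2. The opposite order held for 10 members, among them RpL34a, RpL32 and RpL36. Over the 43 genes, whose ranks come from separate libraries but share a source file named in the read-me, Spearman's rho between the replicates was 0.699, given as a description. Within rank 300, 17 members were found in both replicates, and within rank 1000 there were 30. The shares of all bound protein-coding genes within these ranks in both replicates are not given. Since members rank high in each list, the 2 counts do not show that the replicates match better at members. Differences in depth or enrichment between the replicates could not be measured from the lists, and their part in this was not tested.

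**Figure D3:**
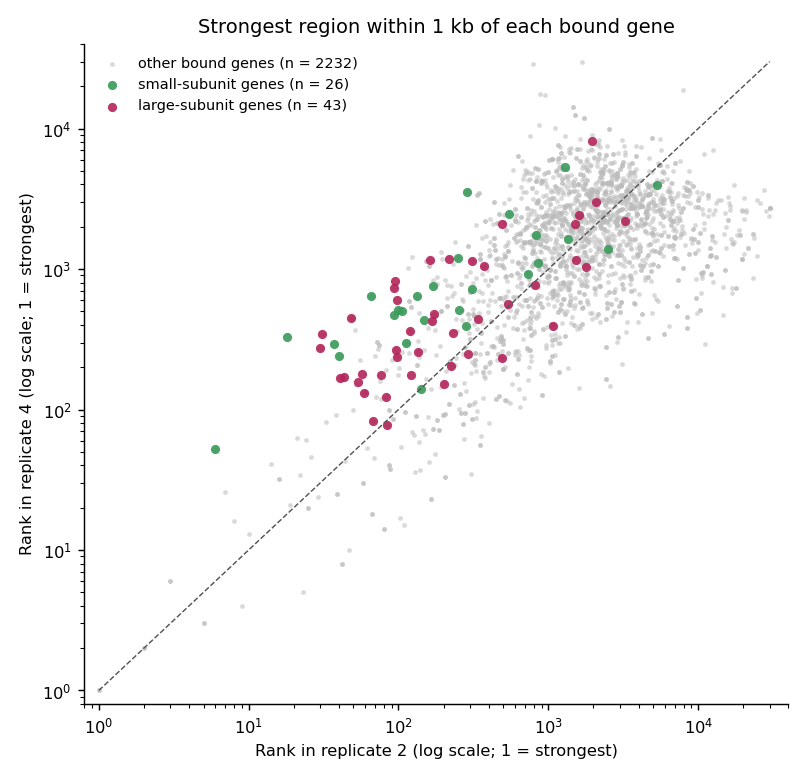
Rank of the strongest region within 1 kb of each bound gene in replicate 2 (x axis) and replicate 4 (y axis), both on log axes, for large-subunit genes (n = 43), small-subunit genes (n = 26) and other bound genes (n = 2232). The dashed line marks equal ranks; 33 of the 43 large-subunit genes lie above it, meaning a higher rank in replicate 2.

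Summits lay on the transcript starts. The median distance from summit to the nearest own start was 17.5 bp, the largest was 67 bp at RpL34b, and 38 of the 44 lay within 50 bp (86.4%). Over all bound protein-coding genes the median was 153 bp, 23.8% lay within 50 bp and 38.1% within 100 bp. This background counts a peak for every gene that starts within 1 kb, also where another start is nearer. With the nearest start only, 1746 of the 2368 remained, and 43 of the 44 members. Distances for the 1746 alone are not given. Of the members' summits, 33 lay upstream of the start (75%), 9 downstream, and those of RpL7A and RpL9 on the first transcribed base. The upstream share was much the same over all bound protein-coding genes, at 73.2%. By annotation, 24 summits were upstream of the gene, 18 in a 5′ UTR and 2 in an intron. The distances of the 6 strongest peaks were 9 bp at RpL14, 36 bp at RpL7, 17 bp at RpL31, 28 bp at RpL13A, 8 bp at RpLP0 and 7 bp at RpL8. Summits were as close to the start at the other genes of the stalk, with 18 bp at RpLP1 and 4 bp at RpLP2. Of the genes with unequal replicates, RpL4 had 18 bp, RpL28 24 bp, RpL27A 11 bp and RpL39 1 bp. Strength and closeness did not go together in an evident way, since the weakest peaks lay 11 bp (RpL15), 39 bp (RpL26), 22 bp (RpL5), 19 bp (RpL38) and 18 bp (RpL36A) from the start. Among the pairs, RpL34a had 27 bp, RpL10Ab 32 bp, RpL22 23 bp, RpL18 3 bp, RpL35 6 bp, RpL35A 9 bp, RpL13 7 bp, RpL27 19 bp, RpL36 16 bp, RpL37A 1 bp and RpL23 42 bp. The rest of the 12 strongest had 15 bp at RpL30 and RpL11 and 5 bp at RpL24. Farthest away, beyond 50 bp, were RpL34b, RpLP0-like (65 bp), RpL17 and RpL32 (64 bp each), RpL23A (57 bp) and RpL41 (54 bp), all upstream. Another protein-coding gene started within 1 kb of the summit at 30 of the bound members, whereas 14 had none, and the member's own start was the nearest at 43.

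The position held in each replicate. Among the 43 members with a region in both replicates, 40 had a summit within 50 bp of the start in replicate 2 and 33 in replicate 4. The median signed offset was -8 bp in replicate 2 and -18 bp in replicate 4, where negative values are upstream. The replicate 4 summit was the more upstream at 28 members, the replicate 2 summit at 14, and 1 was equal. Over all bound protein-coding genes the same side led, with 1223 more upstream in replicate 4 and 1051 in replicate 2, and medians of -76 bp in replicate 2 and -111 bp in replicate 4. The share of all bound genes within 50 bp was 27.5% in replicate 2 and 18.5% in replicate 4. The largest shifts were at RpL34a, with a summit 4 bp from the start in replicate 2 and 127 bp in replicate 4, and at RpL15, with 11 bp and 122 bp. Regions were wider in replicate 2 (median 524 bp) than in replicate 4 (median 344 bp), and the part of width in these shifts was not tested.

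**Figure D4:**
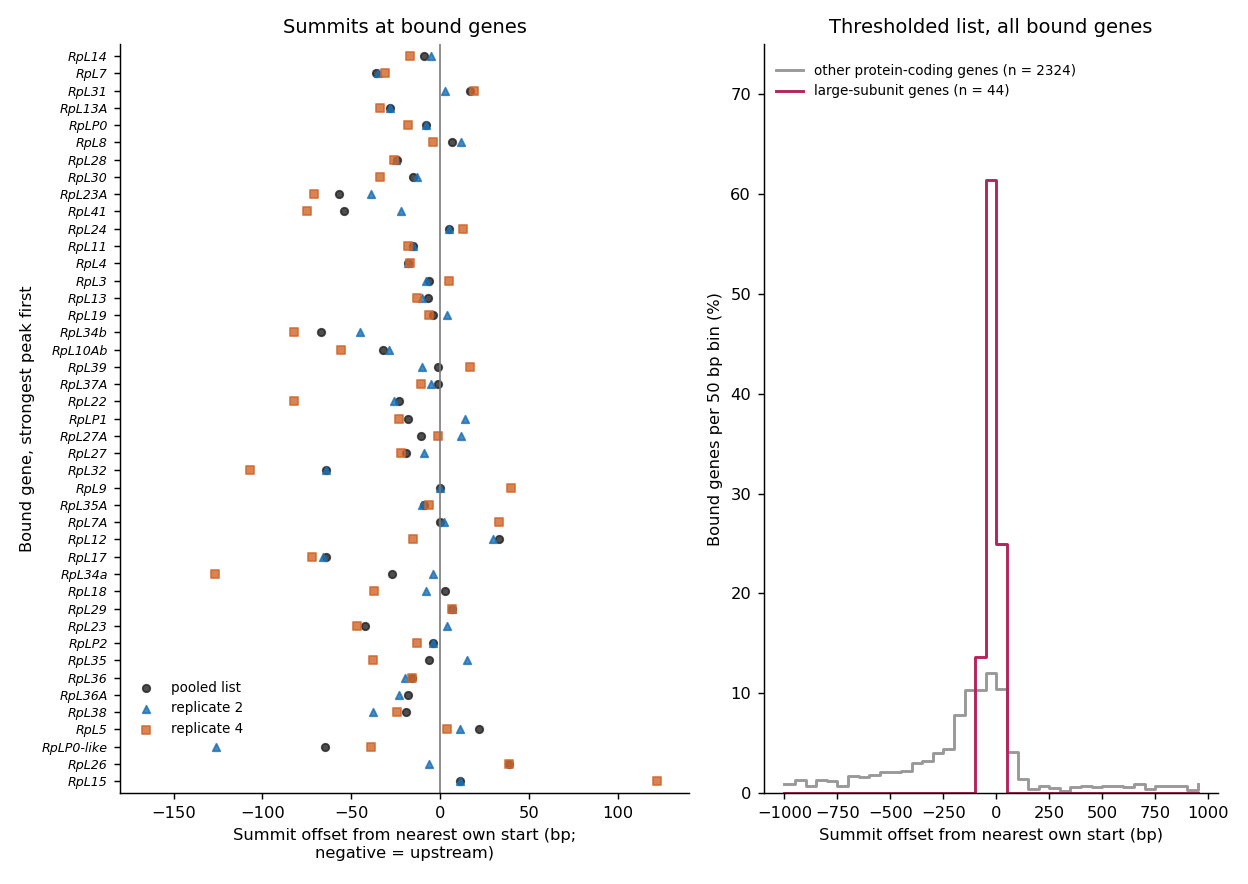
Left, offset in bp of the strongest summit from the nearest own start for 43 of the 44 bound members in the pooled list (circles), replicate 2 (triangles) and replicate 4 (squares), negative being upstream. Right, distribution of thresholded offsets in bins of 50 bp, in percent, for the 44 bound members and the other 2324 bound protein-coding genes. All pooled summits of the members lie within 67 bp of the start, and the other genes spread over the whole window of 1 kb to either side.

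The element MTF-1 is known for was rare at the members' summits and at thresholded summits in general. The MRE core was searched as TGCACNC and TGCGCNC on both strands in the 101 bp centred on each summit. It occurred at 4 of the 44 members (9.09%), namely RpL7, RpL7A, RpL17 and RpL29, against 14.0% of the 1011 thresholded summits that lie within 100 bp of any transcript start and 11.4% of all 3587. RpL7 had 2 matches, the overlapping pair printed above. The form TGCACAC, which is 1 of the MRE cores, occurred at RpL7 alone (2.27%), against 2.97% of summits near starts. In the 300 bp from 250 bp before the start to 50 bp after it, the core occurred at 10 of the 44 bound members (22.7%), against 18.9% of all protein-coding promoters and 25.4% of those with a thresholded summit within 1 kb. RpL7-like, which had no thresholded peak, holds the form TGCACAC in the sequence printed above.

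The DRE and M1BP cores occurred more often than over all summits near starts, a set that includes the members' own. The DRE core ATCGATA, on both strands, was found at 11 members (25%) against 7.91% of summits within 100 bp of a start and 2.98% of all summits. They included RpL10Ab, RpL12, RpL19, RpL27, RpL32, RpL34a, RpL36, RpL36A, RpL39 and RpL41. Since this core overlaps its own reverse complement, 1 site can count as a match on each strand, and windows rather than matches were counted. The M1BP core GGTCACA was found at 6 members (13.6%), RpL23, RpL27A, RpL30, RpL37A, RpLP0 and RpLP1, against 4.65% and 1.76%. No member had both, and 23 had none of the MRE, DRE and M1BP cores in the window. With the summits of the replicates in place of the pooled ones, the DRE core occurred at 9 of 44 members in replicate 2 and 7 of 43 in replicate 4. Neither core set bound members apart in the 300 bp promoter window. There the DRE core occurred at 34.1% of bound members, 37.5% of the 8 unbound and 41.0% of the 39 small-subunit genes. The M1BP core occurred at 22.7%, 25% and 15.4% of these. Over all protein-coding promoters the shares were 17.7% for DRE and 9.46% for M1BP. The TATA box TATAAA was found at 2 members (4.55%) against 9.50% of summits near starts, and the repeat GAGAG at 3 (6.82%) against 18.0%. Base composition was alike, with a mean GC content of 46.0% at the members' summits and 46.0% at summits near starts. Members with a DRE core had a median rank of 286 and those without one 245, an order that turned between the replicates, with 223 against 134 in replicate 2 and 356.5 against 440 in replicate 4.

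The TCT motif was the commonest feature of the bound members' starts. It occurred within 10 bp of the start nearest to the summit at 31 of the 44 (70.5%), against 2.09% of all protein-coding promoters and 3.93% of those with a thresholded summit within 1 kb. Within 20 bp the count was 39 (88.6%) against 4.83%. At the canonical transcript start, within 10 bp, it was 23 (52.3%), close to the 50% of the 8 unbound members. Unbound genes have no summit by which to choose a start, so the 70.5% is not a like comparison with them. The middle position of the C of the motif was base 4 after the start. All 6 members with an M1BP core also had the TCT motif, as did 6 of the 11 with a DRE core. The 31 members with the motif had a median rank of 234 (119 in replicate 2, 353 in replicate 4), and the 13 without it had 489 (536 and 503.5). Both groups spanned most of the range, from 64 to 2017 with the motif and from 73 to 3431 without. Among the unbound members, RpL6, RpL7-like, RpL21 and RpL40 had the motif within 10 bp and RpL10 within 20 bp, while RpL10Aa, RpL22-like and RpL24-like had none in either window. The motif was thus present at 5 of the 8 starts at which no peak was called.

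**Figure D5:**
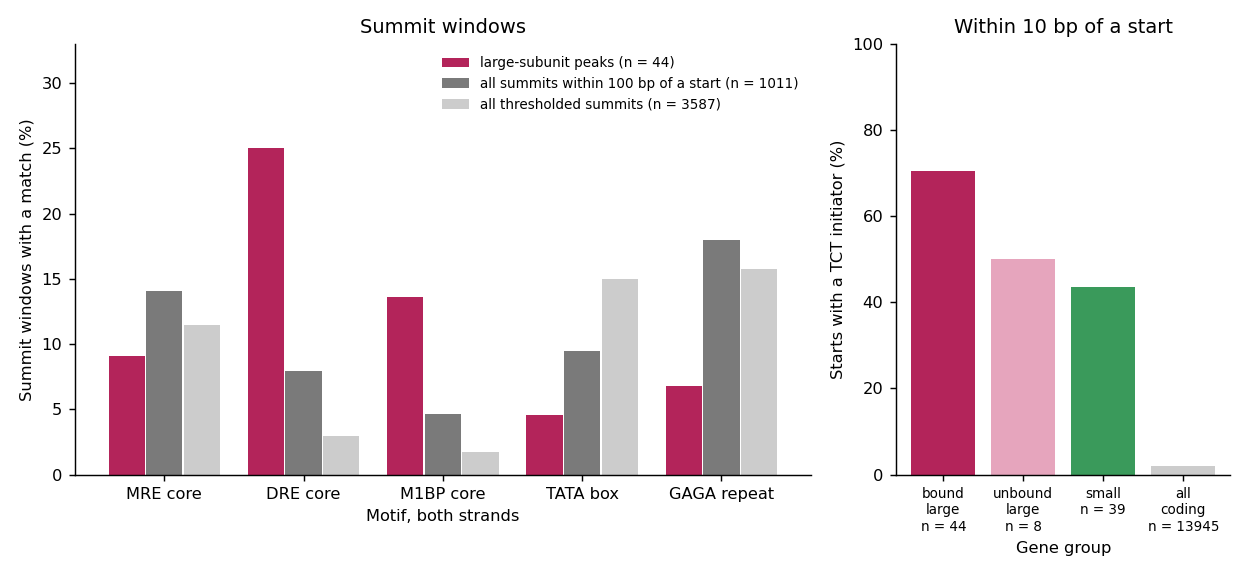
Left, share of 101 bp summit windows with each motif, in percent, for the members' strongest peaks (n = 44), all thresholded summits within 100 bp of a start (n = 1011) and all thresholded summits (n = 3587). Right, share of starts with a TCT motif within 10 bp, in percent, for bound and unbound large-subunit genes, small-subunit genes and all protein-coding genes. The DRE and M1BP bars of the members exceed those of the wider sets, which include the members' own summits, and the MRE bar does not. The TCT share is 70.5% at bound members, taken at the start nearest to the summit, against 2.09% overall. At the canonical starts of the bound members it is 52.3%.

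Other parts of the translation machinery were set beside the large-subunit genes as counts. Of the 39 small-subunit genes of the cytosolic ribosome, 27 were bound (69.2%), with a median rank of 305 and a median distance of 12 bp from the start. Summits lay within 50 bp of the start at 25 of the 27. At RpS19b and RpS28a they lay 920 bp and 497 bp away, nearer to the starts of CG5854 (538 bp) and Mgat2 (70 bp). Mitochondrial ribosomal protein genes were bound at 9 of 47 for the large subunit (19.1%) and 6 of 26 for the small subunit (23.1%), close to the 17% of all protein-coding genes. Of 22 ribosome assembly genes found in the annotation, 7 were bound (31.8%). These were eIF6 (rank 80), Ns2 (310), bys (548), Rrp1 (2023), Nopp140 (2141), Surf6 (2219) and Noa36 (3102). Rrp1 in flies is a DNA repair gene that shares its symbol with a ribosome assembly factor of yeast, and without it 6 of 21 were bound (28.6%), with a median rank of 1344.5. The peak of bys is that of its neighbour RpS6, whose start is 30 bp from the summit, against 579 bp for bys. The eIF6 protein keeps the new large subunit from joining the small one by binding RpL23. The summits of the assembly genes without Rrp1 lay a median of 243.5 bp from the start, and those of the mitochondrial large-subunit genes 146 bp.

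Members were bound on every arm that holds them, with 10 of 13 on 2L, 12 of 13 on 2R, 9 of 10 on 3L, 8 of 11 on 3R and 5 of 5 on X. The share of all protein-coding genes bound on each arm is not given, so the arms cannot be compared by these counts. Within 5 Mb of the centromeric end of an arm, 4 of 5 members were bound (80%), against 40 of 47 farther away (85.1%). Ordered by distance from that end, the first 6 members were RpL15 (0.842 Mb, rank 3431), RpL5 (0.979 Mb, rank 2017), RpL21 (1.27 Mb, unbound), RpL30 (4.51 Mb, rank 96), RpL38 (4.52 Mb, rank 1855) and RpL10 (5.02 Mb, unbound). Only RpL30 among them ranked above the median of the members. Next in that order came RpL35A (5.47 Mb, rank 355), RpL13A (5.63 Mb, rank 74) and RpLP0 (6.03 Mb, rank 75). RpL13A and RpLP0 are among the 12 strongest, so the picture depends on where the list is cut. Over all protein-coding genes within 5 Mb of a centromeric end, 11.1% were bound, against 17.5% of those farther away. The median rank of all bound genes differed little, with 1691.5 within 5 Mb and 1564.5 farther away. For bound members it was 1936 and 254.5, the first value from 4 genes only. This grouping by position was chosen after the ranks were seen.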

How the data were processed

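Per the deposited read-me, each replicate had a list of 30000 regions of peaks and background on dm6. Another such list had been made from both replicates' alignments. The list thresholded by the irreproducible discovery rate (IDR) was derived from those 3. Column 7 holds the signal value of the authors' peak caller, column 9 the −log10 of a q-value (not used for ranking), and column 10 the summit, per the file format named in the deposited read-me. No aligner, caller, IDR threshold or read depth is given in the sources used here. The deposited signal has no SD. Ranks within a list, distances and motif counts were computed with python 3.11.15, numpy 2.4.6 and pandas 2.3.3, and tested on simulated data. Starts were those of Ensembl release 115 without transposable elements. A gene's peak was the strongest region with its summit within 1 kb of a start. Coordinates are 1-based.

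The members and lists were chosen with earlier results of these data known. Genes were named by rule: the 12 strongest and 6 weakest bound, the 6 with the most unequal replicates, genes sharing a number, the stalk genes, unbound members and members whose summit is nearer another gene's start. Of 24 assembly symbols searched, 2 were not found. Alternatives were other windows, starts and thresholds, the nearest gene, and each replicate alone. The values of 1 bound member are not reported here by name; the member is included in the counts and medians.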

Additional observations from a re-analysis of the deposited data

How the results depend on the processing

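The count of 44 bound members ranged from 39 to 45 over all settings. It was 43 when a peak counted only for the nearest start, with 12.5% of all protein-coding genes, and 44 with canonical starts only, with 15%. The share of all protein-coding genes moved to 33.3% within 5 kb and to 9.54% in the upper 50% of the list, and without replicate 2 or replicate 4 it was 16.8% and 16.4%. Leaving out 1 replicate gave 44 and 45 members, with median ranks of 173 without replicate 4 and 408 without replicate 2, against 266, and median distances of 12 bp and 25 bp. Ranks without a replicate are those of the other replicate's own list. The median distance was 26.5 bp from canonical starts, against 17.5 bp. Pooled candidates were at 48 members within 500 bp and at 47 in the upper 50% of the pooled list, against 49. Of the 48 peaks at members, 38 had at least 50% reciprocal overlap with a region in both replicates and 45 had summits within 100 bp, against 47. Shares over all thresholded peaks are not given for these overlaps. In all, 32 of 34 values kept within the tolerance of 1.5 times or the members' spread. The median ranks of 408 and 173 and the distance of 26.5 bp were beyond 1.5 times and passed by the spread alone. That is a loose limit for a median, since the quartiles of the members' ranks were 117 and 609.5. Other TCT windows and starts, and the assembly list without Rrp1, were added after the data were seen. No paired analysis was possible because there is 1 group. The unknown read depth limits statements on the 8 unbound members to the absence of a called region.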

Other observations

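The rule on symbols left out RpL37-1 and RpL37-2, which carry a hyphen and a number. RpL37-1, on X, had a thresholded peak of rank 718 with a signal of 250.2 and its summit 2 bp from the start, and ranks of 360 in replicate 2 and 1677 in replicate 4. RpL37-2 had no region within 1 kb of a start in any of the 4 lists.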
